A study of Mus musculus with 3 samples.

Results

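Netrin and GDNF signalling steer motor axons into the limb, and the 8 mouse genes described here encode their ligands and receptors: Ntn1, Dcc, Unc5b, Unc5c, Gdnf, Gfra1, Gfra2 and Ret. They are described by the sites in and around them at which chromatin immunoprecipitation followed by sequencing (ChIP-seq) listed the LIM homeodomain protein LMX1B. The 8 genes were chosen by name among 21779 protein-coding genes, with earlier results of these data known. Each was given a domain, which reached from the gene on either side as far as the neighbouring protein-coding gene or for 1 Mb, whichever came first. An interval (a peak listed by the authors) was assigned to a gene when its midpoint lay in that domain. This gave 4 of the 1287 intervals of the first ChIP and 12 of the 4501 of the validation ChIP, and these 16 intervals are all given below.

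Both ChIP samples were limb buds of C57BL/6 embryos at embryonic day 12.5, fore- and hindlimbs pooled (2 runs, 48 buds per run), immunoprecipitated with the polyclonal LMX1B antibody BMO8. The validation ChIP is the sample whose title calls it a validation of that antibody, and the first ChIP is the other one, which its track name marks as wild type (WT). No genotype is given in the validation ChIP's track name. Input DNA, from wild-type and mutant chromatin that was pooled, was not analysed here. Each ChIP is 1 sample of whole limb buds, so there is no spread between replicates, no test between conditions, and no way to tell which cells of the bud a site comes from. Expression was not measured, so the cell types of the buds could not be checked against their markers.

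Netrin-1, encoded by Ntn1, is a secreted, laminin-related cue that attracts growing axons through the receptor DCC and repels them through receptors of the UNC5 family. GDNF is a secreted ligand that binds a membrane-anchored co-receptor, GFRα1, and signals through the receptor tyrosine kinase RET; GFRα2 is the preferred co-receptor of the related ligand neurturin. Ligands of both pathways are made by limb tissue and read by motor axons, which grow into either the dorsal or the ventral limb. LMX1B is made in dorsal limb mesenchyme and gives it its dorsal character, and motor axons choose their path abnormally in limbs that lack it.

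Intervals of both lists that had 1 bp or more in common were called shared. Shared intervals lay in the domains of 2 of the 8 genes, Unc5c and Gfra1. This depends on the overlap rule: none of the 8 genes had a shared interval (0 of 8) when the overlap had to cover 50% of each interval, and 1, Unc5c, had one when the summits had to lie at most 100 bp apart. Over all protein-coding genes 3.71% had a shared interval, 2.80% under the 50% rule and 3.02% under the summit rule. Of the other 6, Gfra2 had unshared intervals of both lists, Unc5b had 1 of the first ChIP, and Ntn1, Dcc and Ret had validation intervals alone. Gdnf had no interval of either list, as had 81.8% of all protein-coding genes. First-ChIP intervals lay in the body of 1 of the 8 genes, Unc5c, and validation intervals in the bodies of 4, Ntn1, Dcc, Unc5c and Gfra1. Over all protein-coding genes these shares were 2.42% and 5.46%, which are not matched for the length of the gene body. The bodies of Ntn1, Dcc, Unc5c and Gfra1 measure 177 to 1098 kb, and those of the other genes 27.5 to 89.7 kb. None of the 4 first-ChIP intervals (0%, exact 95% binomial interval up to 60.2%) and none of the 12 validation intervals (0%, up to 26.5%) lay within 1 kb of an end of a protein-coding gene, against 21.7% and 11.4% of the whole lists. Both intervals hold the share of the whole list, so no difference was detectable.

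Start sites were known for 4 of the 8 genes from a RefSeq promoter table of build GRCm38.p6, whose coordinates are those of mm10. The windows of Unc5c and Gfra1 are shown because their domains held the shared intervals, and the first of the 2 windows of Gdnf because its domain held none. Each runs from 250 bases before to 50 bases after the start site, 5′ to 3′ on the gene's strand. Capitals mark ATTA, the core that homeodomain proteins bind, or its reverse complement TAAT.
Unc5c: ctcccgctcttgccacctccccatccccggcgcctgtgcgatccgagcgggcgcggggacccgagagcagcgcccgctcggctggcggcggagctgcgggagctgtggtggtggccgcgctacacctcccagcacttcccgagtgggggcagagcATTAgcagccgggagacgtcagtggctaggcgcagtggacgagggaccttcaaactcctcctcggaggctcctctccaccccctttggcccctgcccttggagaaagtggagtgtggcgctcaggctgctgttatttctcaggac
Gfra1: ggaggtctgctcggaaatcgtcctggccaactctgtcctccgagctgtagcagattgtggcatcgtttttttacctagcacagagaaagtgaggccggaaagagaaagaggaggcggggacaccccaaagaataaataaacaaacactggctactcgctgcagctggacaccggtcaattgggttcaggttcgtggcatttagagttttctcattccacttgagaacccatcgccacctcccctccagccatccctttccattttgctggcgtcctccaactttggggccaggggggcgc
Gdnf: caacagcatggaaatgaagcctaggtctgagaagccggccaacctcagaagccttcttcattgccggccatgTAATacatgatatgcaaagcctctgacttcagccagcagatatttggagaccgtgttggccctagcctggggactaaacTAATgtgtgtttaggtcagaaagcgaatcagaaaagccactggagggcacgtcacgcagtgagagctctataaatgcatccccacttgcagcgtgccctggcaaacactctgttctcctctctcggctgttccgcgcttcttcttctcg

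The Unc5c window lies on the plus strand at chr3:141465314-141465613, that of Gfra1 on the minus strand at chr19:58455349-58455648, and that of Gdnf on the plus strand at chr15:7809798-7810097. ATTA was present on either strand in 3 of the 5 windows of the 4 genes, namely the one of Unc5c and both of Gdnf, and in 58.0% of all 32851 windows in the table. In the Unc5c window its first base lay 95 bases before the start site, and in the Gdnf window the matches began 178 and 99 bases before it. The longer motif TAATTA was in none of the 5 windows and in 5.29% of all windows, and TTAATTAA was in none of the 5 and in 0.615% of all. A match to TAATTA or TTAATTAA also counts as a match to ATTA. None of the 5 windows was overlapped by an interval. The nearest interval to the Unc5c window was 43.9 kb away, to the Gfra1 window 119 kb and to the Gdnf window shown 404 kb. The letters of the intervals themselves are not given, because no genome sequence was used here.

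**Figure D1:**
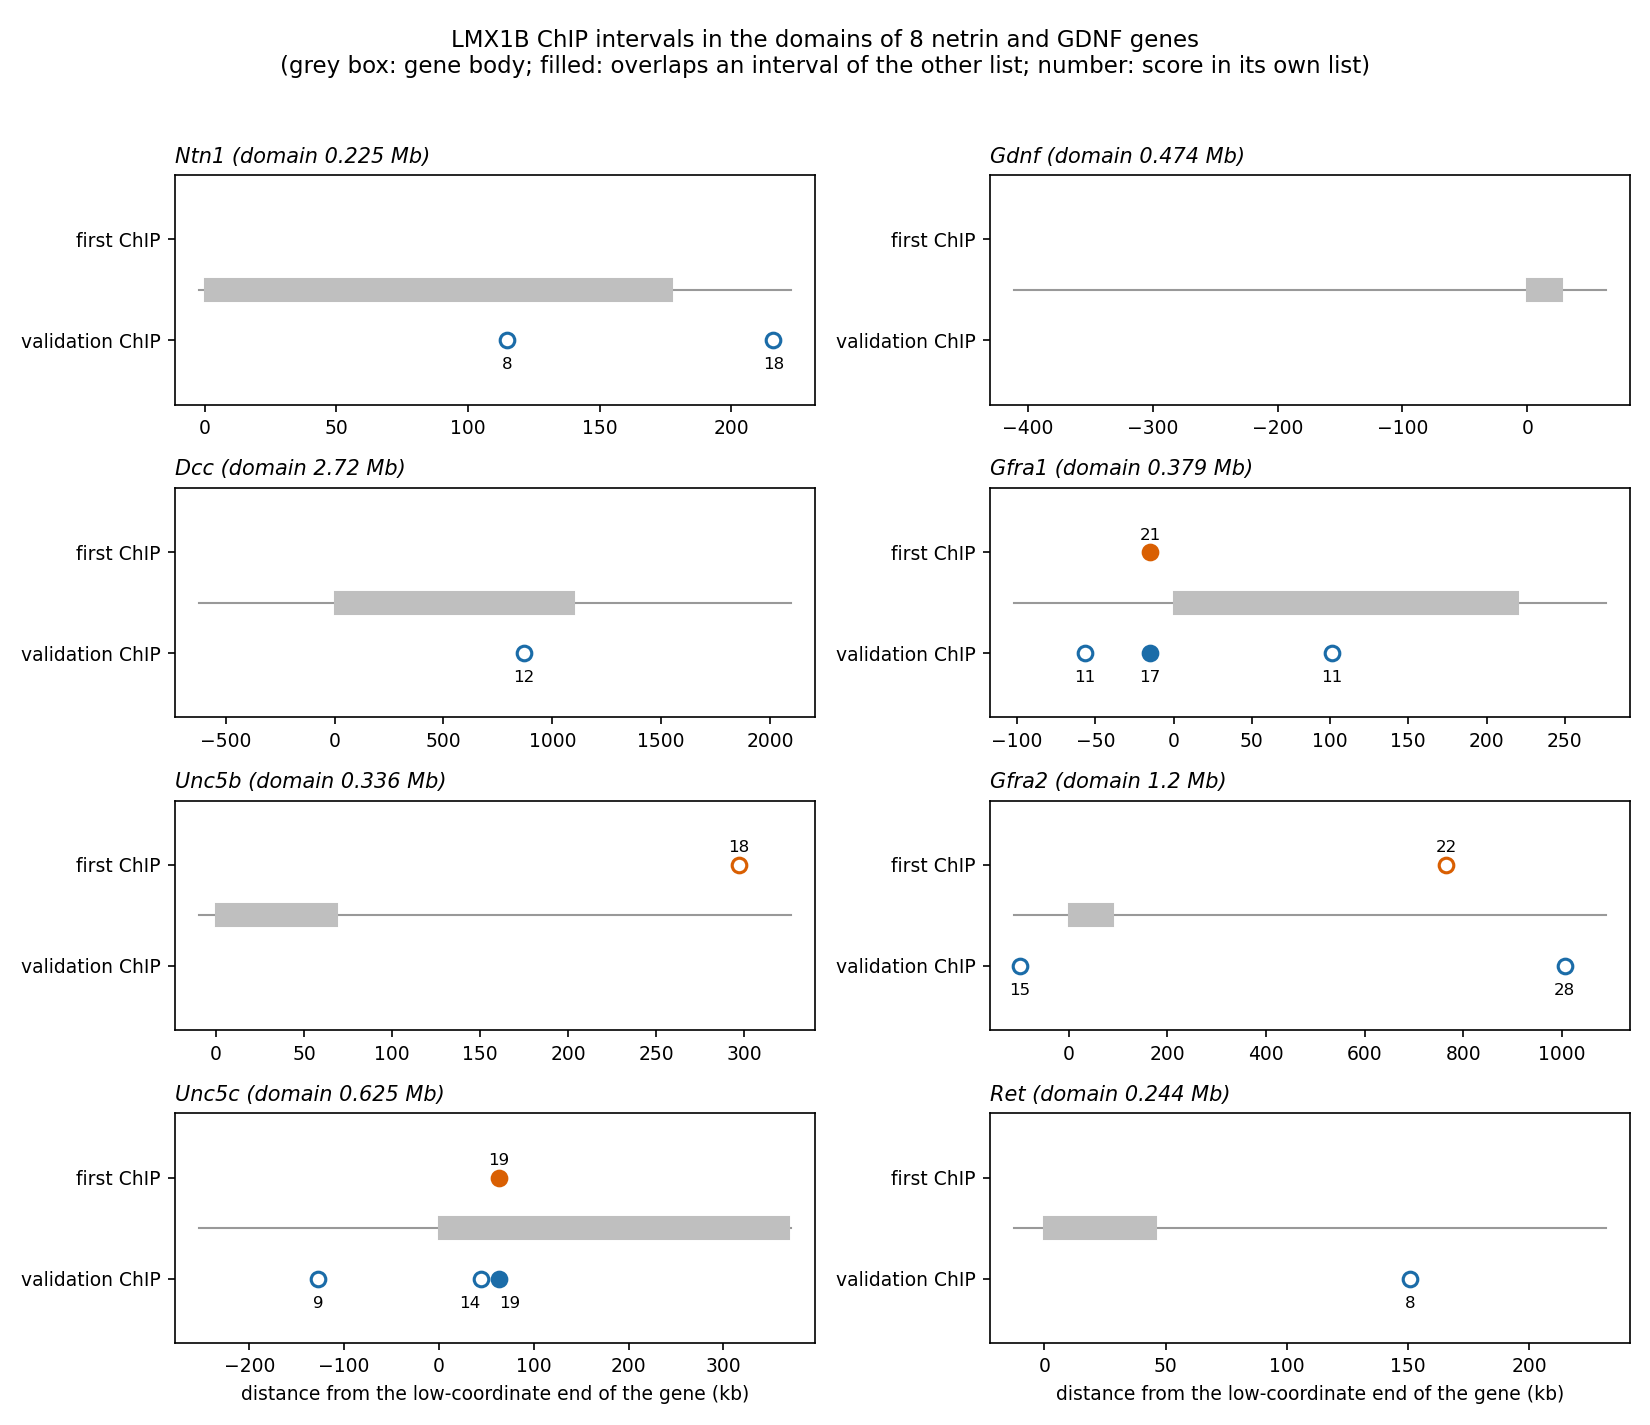
Intervals of the first ChIP (orange, upper row of each panel) and of the validation ChIP (blue, lower row) along the domain of each of the 8 genes, as distance in kb from the low-coordinate end of the gene. Filled points are shared intervals, which appear for Unc5c and Gfra1 alone, the numbers are scores in the interval's own list, and the grey box is the gene body.

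Ntn1 (chromosome 11, 68209364 to 68386826) encodes the netrin ligand. Its domain of 0.225 Mb held 2 validation intervals and no first-ChIP interval. The first, at 68323917 to 68324482 in the gene body and 62.6 kb from the nearer gene end, had a score of 8. The score is a whole number that the authors gave to each interval, without a stated unit, so it is used here to rank intervals within their own list. Of the validation list, 1.22% scored below 8, so this interval is among the weakest listed. The second, at 68425408 to 68426192, had a score of 18, and 89.0% of the list scored lower. It lay between Ntn1 and Pik3r5, 39.0 kb from Ntn1 and 6.33 kb from Pik3r5, which is therefore the nearer gene. A shared pair lay just outside the domain, in the body of the neighbouring gene Stx8 and 13.6 kb from Ntn1. It comprised a first-ChIP interval at 68195449 to 68196127 with a score of 30 and a validation interval at 68195575 to 68196040 with a score of 17. It belongs to the domain of Stx8 under the rule, and counts for Ntn1 if the gene and 50 kb on either side are taken instead.

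Dcc (chromosome 18, 71253613 to 72351228) encodes the attractive netrin receptor and spans 1098 kb. Its domain of 2.72 Mb, longer than 99.9% of the domains of all protein-coding genes, held a single interval. This was a validation interval at 72122176 to 72122855 in the gene body, 229 kb from the nearer gene end, with a score of 12, and 55.9% of the list scored lower. The nearest first-ChIP interval was 2877 kb from it. The closest interval beyond the domain's edge was a validation interval at 70625558 to 70626075 in Mbd2, 3.32 kb outside and 628 kb from Dcc, with a score of 10.

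The repulsive netrin receptors UNC5B and UNC5C differed in what was listed around their genes. Unc5b (chromosome 10, 60762594 to 60831581) had 1 first-ChIP interval in its domain of 0.336 Mb and no validation interval. It lay at 61059737 to 61060020, 228 kb upstream of the start site, with a score of 18, and 23.9% of the first list scored lower. At 29.5 kb it was nearer to Pcbd1 than to Unc5b, and the nearest validation interval was 4220 kb away.

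Unc5c (chromosome 3, 141465564 to 141834924) had 1 first-ChIP and 3 validation intervals in its domain of 0.625 Mb. The first-ChIP interval, at 141528958 to 141529352, lay in the gene body 63.6 kb downstream of the start site. It was 395 bp wide and lay wholly within a validation interval of 1217 bp at 141528633 to 141529849, of which it covered 32.5%. The summits of the pair were 80 bp apart. Its score was 19 in the first list, where 35.4% scored lower, and that of its partner was 19 in the validation list, where 90.8% scored lower. Within its own list the first-ChIP interval ranked below the middle, and its partner ranked near the top. The lists differ in length (1287 and 4501 intervals) and in lowest score (12 and 6), so their ranks cannot be compared with each other. A second validation interval in the gene body, at 141509486 to 141510101, had a score of 14 and lay 18.9 kb from the shared one. The third, at 141338161 to 141338769, lay 127 kb upstream of the start site, about as far from Pdha2 (126 kb), and had a score of 9, with 7.82% of the list lower. Whether the sites in the gene body lie in exons or introns was not resolved. A further shared pair, at 141923681 to 141924034 in the first list and 141923531 to 141924176 in the validation list, lay in the next gene, Bmpr1b, 88.9 kb beyond the far end of Unc5c.

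The ligand gene of the GDNF pathway had nothing listed around it. Gdnf (chromosome 15, 7810048 to 7837580) has a domain of 0.474 Mb, most of which is the 411 kb between it and Egflam. The nearest first-ChIP interval, at 8214051 to 8214292 in Cplane1, had a score of 16, was not shared and lay 377 kb from Gdnf. The nearest validation interval, at 6320488 to 6320868 in Dab2, was 1489 kb away. Among protein-coding genes whose domains measured 0.25 to 0.5 Mb, 63.8% likewise had no interval of either list. The lists hold only intervals above the authors' threshold, so an empty domain does not show that LMX1B was absent there.

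Gfra1 (chromosome 19, 58235581 to 58455946), which encodes the co-receptor of GDNF, had 1 first-ChIP and 3 validation intervals in its domain of 0.379 Mb. The first-ChIP interval, at 58220415 to 58220724, lay 15.0 kb beyond the downstream end of the gene and 235 kb from its start site. It was 310 bp wide, lay wholly within a validation interval of 804 bp at 58220080 to 58220883 and covered 38.6% of it, with summits 128 bp apart. Its score was 21 in the first list, with 54.7% lower, and that of its partner was 17 in the validation list, with 86.6% lower. Gfra1 was the nearest protein-coding gene to this pair. The other validation intervals each had a score of 11, with 42.4% of the list lower. One, at 58336095 to 58336500, lay in the gene body 119 kb from the start site, and the other, at 58178453 to 58178818, lay 56.9 kb from Gfra1 and 45.3 kb from Atrnl1. A short protein-coding gene of the annotation, Gm46650, overlaps the body of Gfra1.

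**Figure D2:**
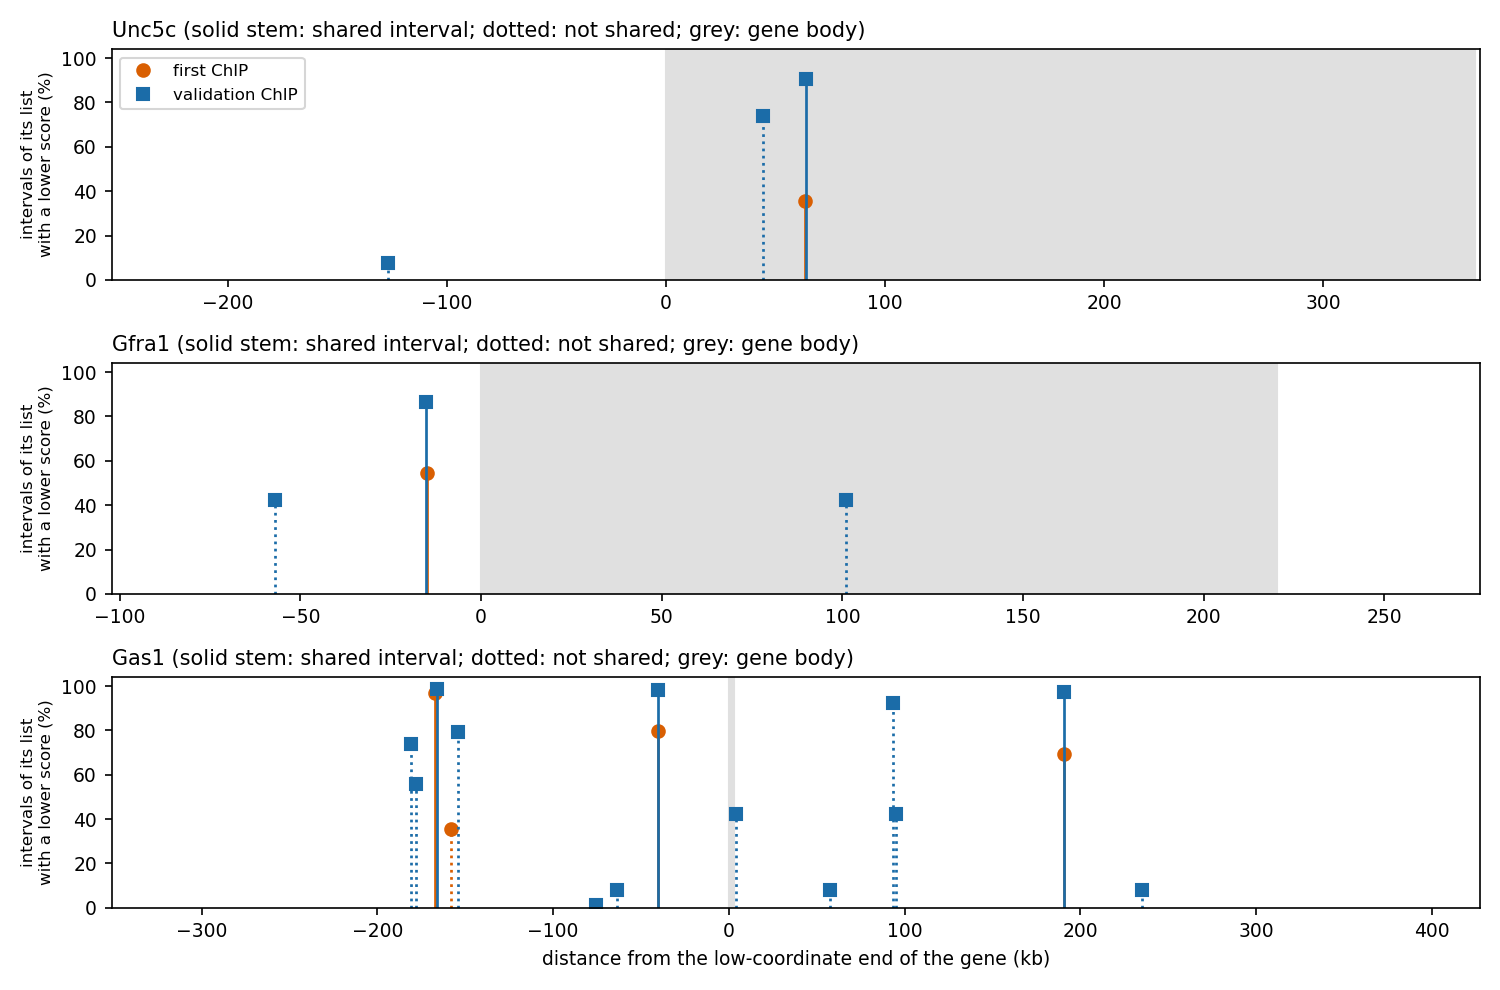
Rank of each interval in its own list (percentage of that list with a lower score) along the domains of Unc5c and Gfra1, which hold the shared pairs of the 8 genes, and of Gas1, a further gene of the GDNF pathway; the horizontal axes are distance in kb from the low-coordinate end of the gene. The validation member of each shared pair in these 3 domains (squares on solid stems) stood above 86.6% or more of its list. The first-ChIP members (circles) ranged from 35.4% at Unc5c to 97.0% at Gas1. The lists differ in length and lowest score, so ranks cannot be compared between them.

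Gfra2 (chromosome 14, 70890107 to 70979840) had 1 first-ChIP and 2 validation intervals in its domain of 1.20 Mb, none of them shared and none in the gene body. The first-ChIP interval, at 71655126 to 71655513, lay 675 kb from the gene in the long non-coding RNA gene Gm34819, with a score of 22 and 62.5% of the list lower. The validation interval at 71895386 to 71895992 had a score of 28, with 98.0% of the list lower. That was the highest rank among the 12 validation intervals, but the interval lay 916 kb from Gfra2, in the long non-coding RNA gene 4930434J06Rik, and was nearer to Gm9195 (536 kb). The other, at 70790705 to 70791308 in Gm34442, had a score of 15 and lay 99.1 kb from Gfra2 but 12.5 kb from Dok2. Assignment to Gfra2 rests on the 1 Mb reach of the domain for the first and second of these, and with a reach of 250 kb both fall outside it.

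Ret (chromosome 6, 118151748 to 118197744), which encodes the signalling receptor, had 1 validation interval in its domain of 0.244 Mb, at 118302206 to 118302662. It lay 105 kb from Ret and 80.9 kb from Bms1, in the long non-coding RNA gene Gm30498. Its score was 8, and 1.22% of the list scored lower. The nearest first-ChIP interval was 153 kb from it, beyond the domain, at 118455350 to 118455688 in Zfp248.

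The 4 first-ChIP scores ran from 18 to 22, close to the list's median of 20 and far below its highest score of 86. The 12 validation scores ran from 8 to 28, against a list median of 11, and 9 of them were at or above that median. The shared validation intervals of Unc5c and Gfra1 were 2 of the 4 with the highest scores among these 12. Of the 4 first-ChIP intervals 2 were shared (exact 95% binomial interval 6.76% to 93.2%), against 54.9% of the whole first list. Of the 12 validation intervals 2 were shared (16.7%, exact 95% interval 2.09 to 48.4), against 15.6% of the whole validation list. Both intervals are wide and hold the value of the whole list. The deposited list named Active Regions contained both shared first-ChIP intervals and neither of the other 2. These 2 of 4 (exact 95% interval 6.76% to 93.2%) compare with 57.1% of the whole first list. All 735 entries of Active Regions have the coordinates of first-ChIP intervals, so that list is no independent check on sharing.

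**Figure D3:**
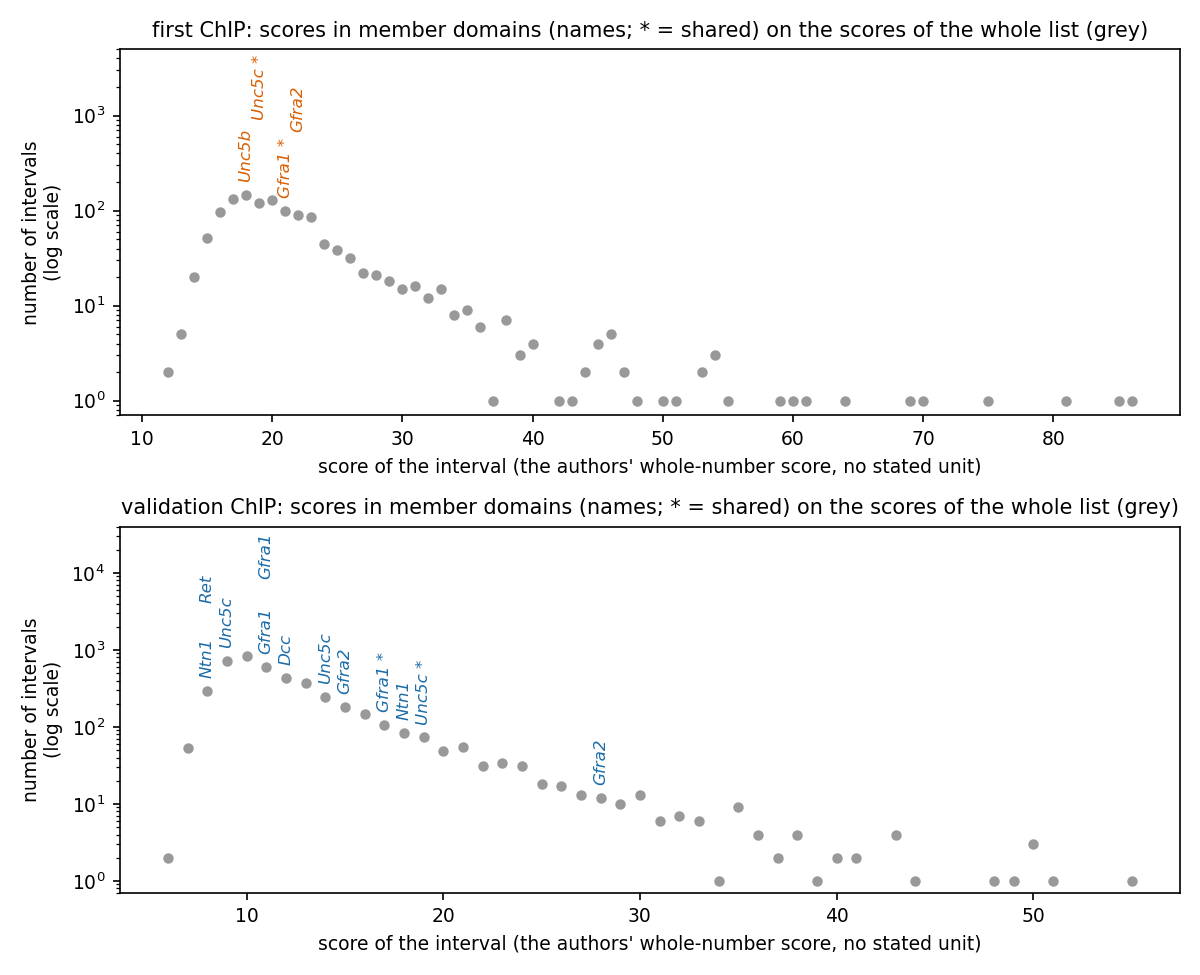
Number of intervals (log scale) at each score in the first ChIP (above) and the validation ChIP (below), as grey points, with the names of the genes in whose domains intervals of that score lay and an asterisk for shared ones. The names in the upper panel stand at scores of 18 to 22, near the peak of the distribution, and those in the lower panel at 8 to 28.

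A first-ChIP interval was present in 4 of the 8 domains (exact 95% interval 15.7% to 84.3%), a validation interval in 6 (34.9% to 96.8%) and a shared interval in 2 (3.19% to 65.1%). The 8 genes were chosen with earlier results of these data known, and the 95% intervals do not allow for that choice. Over all 21779 protein-coding genes the percentages were 6.61% for the first ChIP, 16.4% for the validation ChIP and 3.71% for shared intervals. The domains of the 8 genes are long, however, each longer than at least 78.3% of all domains, and longer domains held intervals more often. Among protein-coding genes with a domain of 1 Mb and over, like Dcc and Gfra2, 29.5% had a first-ChIP interval, 56.5% a validation interval and 22.4% a shared one. In the class of Unc5c (0.5 to 1 Mb) these were 22.4%, 51.7% and 16.9%, in that of Unc5b, Gdnf and Gfra1 (0.25 to 0.5 Mb) 11.9%, 33.9% and 7.07%, and in that of Ntn1 and Ret (under 0.25 Mb) 3.61%, 9.62% and 1.35%. The last class has a mean domain of 0.0762 Mb, and Ntn1 and Ret lie at its upper edge with 0.225 and 0.244 Mb, so its shares are no match in length for these genes. Dcc, with 2.72 Mb, is likewise longer than the mean of 1.40 Mb of its class.

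Per length, the 8 domains were compared with the domains of all protein-coding genes together, the 8 included. The 8 domains held 0.644 first-ChIP intervals per Mb (exact 95% Poisson interval 0.176 to 1.65), against 0.485 over all domains. For the validation ChIP the values were 1.93 per Mb (0.999 to 3.38) and 1.70, and for shared intervals 0.322 (0.0390 to 1.16) and 0.266. Each genome-wide value lies inside the interval of the 8 genes, so no difference was detectable at these counts. Dcc alone makes up much of the 6.21 Mb. Without it, a setting chosen after the values were seen, the densities were 1.15 (0.313 to 2.94), 3.16 (1.58 to 5.65) and 0.574 (0.0695 to 2.07) per Mb, and the validation interval still held the genome-wide 1.70. Binomial and Poisson intervals cover counting error only, since neighbouring intervals are not independent.

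The genes differed among themselves. The 3 validation intervals of Gfra1 compare with a mean of 0.636 for protein-coding genes of its length class (mean domain 0.350 Mb, against 0.379 Mb for Gfra1), and the 3 of Unc5c with 1.49 (mean domain 0.691 Mb, against 0.625 Mb). The 1 of Dcc compares with 2.12 in a class of shorter mean domain. Among all protein-coding genes 743 had 3 or more validation intervals and 807 had a shared interval. With 1 sample per list, these differences between genes have no replicate check.

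**Figure D4:**
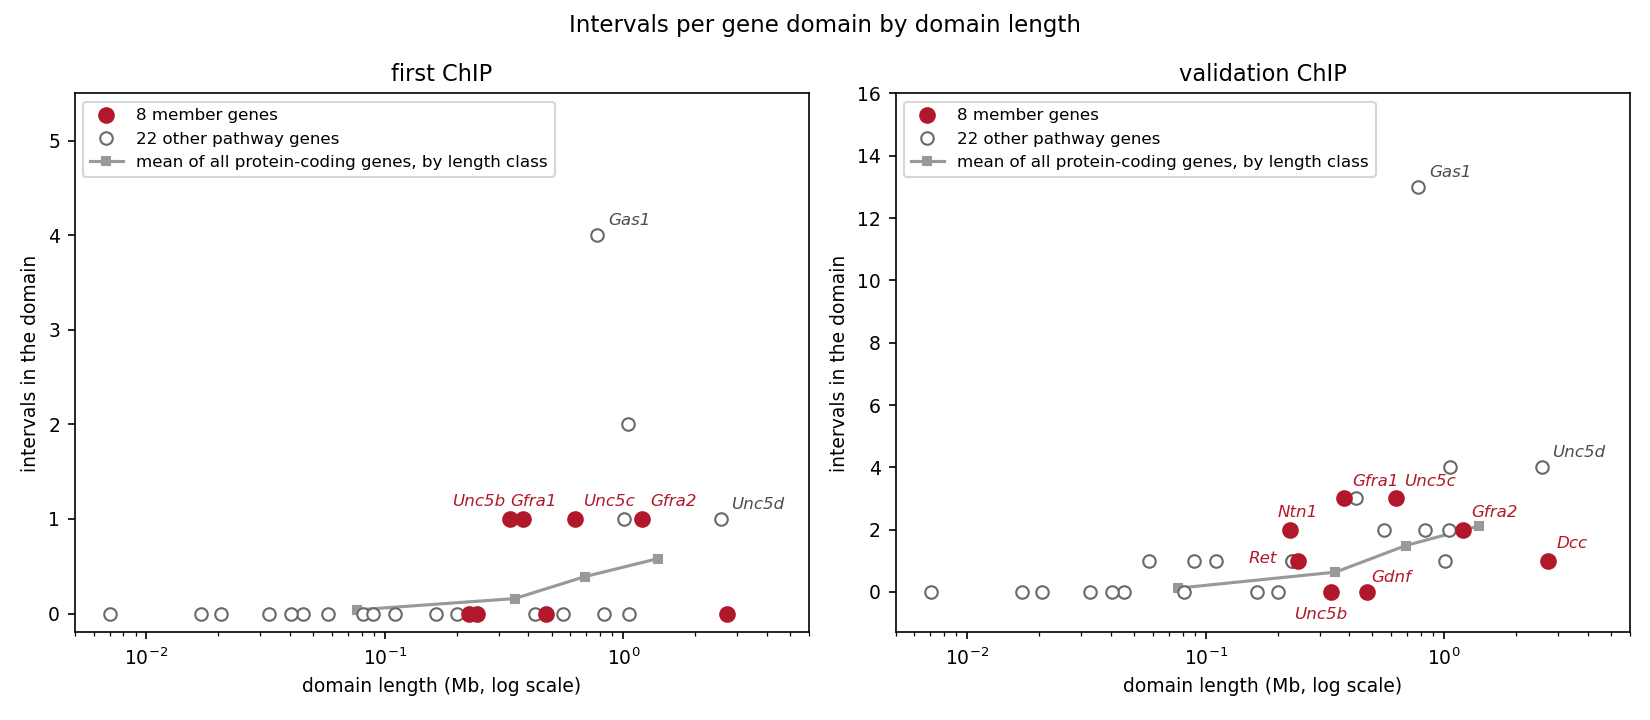
Number of first-ChIP (left) and validation (right) intervals in a gene's domain against the length of the domain in Mb (log scale), for the 8 genes (red), 22 other genes of the same pathways (open circles) and the mean of all protein-coding genes in 4 length classes (grey squares). In the validation panel Gfra1 and Unc5c, with 3 intervals each, Ntn1 with 2 and Ret with 1 lie above the grey line. Gdnf and Unc5b lie below it in that panel, and Gas1 stands apart with 13. Dcc, at 2.72 Mb, lies beyond the end of the line at 1.40 Mb, and its 1 interval is below the line's last value of 2.12.

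Other genes of the netrin and GDNF pathways were described in the same way: further netrins, receptors and modulators (Ntn3, Ntn4, Ntn5, Ntng1, Ntng2, Neo1, Unc5a, Unc5d, Dscam, Draxin, Rgma, Rgmb), GDNF family ligands and co-receptors (Nrtn, Artn, Pspn, Gfra3, Gfra4, Gfral, Gas1, Ncam1), and the transcription factor genes Etv4 and Etv5, which GDNF signalling through RET switches on. Of these 22, 4 had a first-ChIP interval (18.2%), 13 a validation interval (59.1%) and 2 a shared interval (9.09%), against the 6.61%, 16.4% and 3.71% of all protein-coding genes given above. These shares are not matched for domain length. The first-ChIP intervals all lay in the domains of Gas1, Unc5d, Rgma and Ncam1, which measure 0.779 to 2.57 Mb. Among all protein-coding genes with domains of 0.5 to 1 Mb, 22.4% had a first-ChIP interval, and with 1 Mb and over 29.5%. Of the 22 domains 14 were under 0.25 Mb, where 3.61% of all protein-coding genes had a first-ChIP interval and 9.62% a validation interval. The shared intervals lay in the domains of Gas1 and Unc5d, and Rgma and Ncam1 had unshared intervals of both lists. Nrtn, Artn and Pspn, the other GDNF family ligands, had none, and neither had the co-receptor genes Gfra3 and Gfra4. These 5 genes have short domains of 0.00703 to 0.0812 Mb.

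Gas1 (chromosome 13, 60174405 to 60177535) encodes a membrane-anchored protein related to the GFRα co-receptors, which binds RET and is also a hedgehog co-receptor. Its domain of 0.779 Mb held 4 first-ChIP and 13 validation intervals, and 3 shared pairs. Of all protein-coding genes, Gas1 included, 37 had as many validation intervals or more, and 79 as many shared ones or more. The shared first-ChIP intervals had scores of 40, 25 and 23 in coordinate order, and their validation partners 30, 29 and 26. The first, at 60007558 to 60008148, lay 167 kb from the gene, with 97.0% of the first list lower. The second, at 60133805 to 60134223, lay 40.4 kb from it, and the third, at 60364842 to 60365307, lay 188 kb on the other side. All 3 validation partners ranked above at least 97.3% of their list, and thus higher than those of Unc5c and Gfra1. An unshared validation interval with a score of 11 lay 1.09 kb from Gas1.

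Unc5d, the fourth UNC5 receptor gene (chromosome 8, 28646717 to 29219671), had 1 first-ChIP and 4 validation intervals in its domain of 2.57 Mb, all outside the gene body. The shared pair lay 759 kb from the gene, with a score of 20 in the first list, where 44.7% scored lower, and 14 in the validation list, where 73.8% scored lower. Its validation member thus ranked below those of Unc5c, Gfra1 and Gas1. The summits were 192 bp apart. Together the 22 domains held 3.74 validation intervals per Mb (2.62 to 5.18), against 1.70 over all protein-coding domains. Gas1 supplied 13 of the 36 validation intervals. Without Gas1 the validation density was 2.60 per Mb (1.65 to 3.90), whose interval holds 1.70. The first-ChIP density was then 0.453 per Mb (0.123 to 1.16), against 0.832 with Gas1 and 0.485 over all protein-coding domains. That of shared intervals rested on 1 interval and was 0.113 (0.00286 to 0.630), against 0.416 with Gas1 and 0.266 over all. Both of these 95% intervals hold the value over all protein-coding domains.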

How the data were processed

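LMX1B ChIP-seq intervals of 2 samples, 1 per group, were analysed. Per the labels, the authors fixed pooled limb buds with 1% formaldehyde for 15 min and sheared the chromatin to 300 to 500 bp. The labels give 30 µg of chromatin for each ChIP sample. BWA and build mm10 are named in the submitters' processing notes. The peak caller, its threshold, aligner version and sequencing depth are not stated. Each deposited list gives intervals and, per summit, a whole-number score whose unit is not stated; scores were used only within a list. The validation sample's list repeats the 1287 intervals of the first ChIP, with 1 summit moved by 16 bp; that copy was used. Tracks were tied to samples by name.

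Genes were placed with a RefSeq table of GRCm38.p6 (49603 genes after 340 autosomal or X entries that start before 3 Mb were dropped), which has no strand or exons; start sites came from a RefSeq promoter table. Of the 8 genes 4, and 5 windows, were in it. Coordinates are 1-based, and distances run from interval midpoints to the nearer gene end unless a start site is named. With no replicates, no p-value was computed. Exact binomial and Poisson intervals (95%) used SciPy 1.17.1. The gene rule names the 8 genes, all their intervals, and other pathway genes with intervals of both lists. Members and lists were chosen with earlier results of these data known. The counting functions were tested on simulated data. Alternatives were other overlap rules, score thresholds, domain reaches and the summit as position.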

Additional observations from a re-analysis of the deposited data

How the results depend on the processing

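Counts in these domains are small, so single intervals decide them. When the overlap had to cover 50% of each interval, 0 of the 8 genes and 0 intervals were shared, and 1 further pathway gene (Gas1), because the first-ChIP intervals of Unc5c and Gfra1 cover less than that share of their wider partners. With summits at most 100 bp apart, 1 of the 8 genes (Unc5c), 1 interval and 1 further pathway gene (Gas1) were shared. Over all protein-coding genes 2.80% had a shared interval under the 50% rule and 3.02% under the summit rule. Among intervals that reached their list's median score, 1 gene (Gfra1) and 1 interval were shared, and 2 first-ChIP intervals in 2 genes (Gfra1 and Gfra2) were left. At that threshold 2.70% of all protein-coding genes had a shared interval and 4.09% a first-ChIP interval. Intervals given only to the nearest protein-coding gene left 6 of the 12 validation intervals. The further pathway genes with a shared interval numbered 1 (Gas1) with a reach of at most 250 kb and with a window of 50 kb on either side. In that window 3 of the 8 genes had a shared interval, Ntn1 through the pair in Stx8. The shares of all protein-coding genes were 3.01% with that reach and 3.15% in that window. Without Gas1, chosen after seeing the data, the validation density of the further pathway genes was 2.60 per Mb. Of 41 counts recomputed under these settings, 28 stayed within 1.5-fold and 13 did not. That rule compares numbers and not which genes are counted, and it passes a fall from 6 to 4 genes. In the window of 50 kb, first-ChIP intervals counted for Gfra1, Ntn1 and Unc5c, and no longer for Gfra2 and Unc5b. Validation intervals then counted for 4 genes, Dcc, Gfra1, Ntn1 and Unc5c, as they did under the nearest-gene rule. The window's shares of all protein-coding genes were 8.34% and 18.2%. Of 6 densities without Dcc or Gas1, 5 lay within the counting interval of the density with that gene, and the 2.60 per Mb did not. No direction or test was at stake. No paired analysis was possible because each group has 1 sample, and leaving out a replicate was not possible for the same reason. Depth is unknown, so a domain with no listed interval sets no limit on binding.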

Other observations

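Of the further pathway genes with intervals of both lists but none shared, Rgma, which encodes a ligand of the netrin receptor neogenin, had 2 first-ChIP and 2 validation intervals in its domain of 1.05 Mb. One first-ChIP interval, with a score of 14, lay 26.6 kb from the gene in the long non-coding RNA gene A730056A06Rik. The others lay 649 to 906 kb away and were nearer to Mctp2 (163 to 419 kb). Ncam1 encodes an adhesion molecule that also binds GDNF. It had a first-ChIP interval with a score of 14 at 622 kb, which was nearer to Plet1 (73.0 kb). Its validation interval had a score of 8 and lay at 163 kb. These scores are near the lowest of their lists, with 0.544% and 1.22% of intervals lower.

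Draxin and Neo1 are named because of their values. Draxin encodes a secreted netrin antagonist, and its short domain of 0.0577 Mb held a validation interval in the gene body at 148122499 to 148123099 on chromosome 4, 7.90 kb from a start site, with a score of 19 and 90.8% of the list lower. Neo1, which encodes neogenin, had 3 validation intervals in its domain, 98.3, 150 and 253 kb from the gene, with scores of 13, 12 and 18. The second and the last were nearer to Adpgk, at 105 and 2.19 kb. Neither gene had a first-ChIP interval.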
